A study of Mus musculus with 24 samples.

Results

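Tachykinins are a small family of neuropeptides that signal through their own receptors. Their ligand and receptor genes were followed here through 4 members, Tac1, Tac2, Tacr1 and Tacr3. The members were taken by symbol from the 54235 features of the count matrices, whatever their values, and all 4 were detected in both regions. The question was which neuron types of motor cortex and dorsal striatum make the ligands and which hold the receptors.

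The data are single-cell transcriptomes of mice that learned to reach with 1 forelimb. All mice carried an activity-dependent recombinase and the Ai9 reporter, so that 4-hydroxytamoxifen (4-OHT) made recently active cells switch on tdTomato. The genotype was Fos-CreER::Ai9 for every motor cortex sample and Arc-CreER::Ai9 for every dorsal striatum sample, so region and driver line cannot be told apart. Early mice had trained for 2 days and late mice for 8 days. Control mice received 4-OHT and no training. Tissue was taken 3 days after labelling, in all groups. Each hemisphere of a pool held tissue of 2 mice, and with 24 libraries there were 12 pools, of which each combination of region and stage had 2. The pool was the replicate throughout, and pools are numbered 1 and 2 in the order of their records. The ages of the mice are not given in the sources used here. The labels set the 2 pools of a group apart only by their mice and their sequencing batch, and in control and late groups they also differ in capture kit class (read from the barcodes, below). P-values for training stage were set against the spread between these pools. Those for hemispheres, reporter and neighbouring cell types rest on differences within pools. The fits over all genes also share estimates of spread across genes, so their p-values do not rest on the pools of a single gene alone.

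Tac1 encodes the precursor of substance P and neurokinin A, and Tac2 the precursor of neurokinin B. Substance P binds best to the NK1 receptor, the product of Tacr1, and neurokinin B to the NK3 receptor, the product of Tacr3. Both receptors couple to Gq and excite neurons. In the striatum, substance P is the classical peptide of spiny projection neurons with the D1 dopamine receptor, and cholinergic interneurons are a classical target of it. Chemically, a tachykinin is recognised by its shared carboxy-terminal core, Phe-X-Gly-Leu-Met.

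That core is what unites the peptides, so the coding DNA of the 3 peptides is shown to let the shared and the differing parts be seen. The sequences were read from the GRCm38 genome and GENCODE M21 coding exons, on the plus strand, and the capitals mark the 5 codons of the core:
substance P: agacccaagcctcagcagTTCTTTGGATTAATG
neurokinin A: cataaaacagattccTTTGTTGGACTAATG
neurokinin B: gacatgcacgacttcTTTGTGGGACTTATG
Substance P is coded by 33 bases at chr6:7556732-7556764 in coding exon 3 of Tac1. It is in 3 annotated Tac1 transcripts. Neurokinin A is coded by 30 bases at chr6:7559101-7559130, in exon 5 of transcript Tac1-203, and is in 2 of those 3 transcripts. Neurokinin B is coded by 30 bases at chr10:127729116-127729145, in exon 5 of Tac2. The libraries count the 3' ends of transcripts, so a Tac1 count does not say which of its peptides a transcript codes.

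The genes lie at chr6:7554879-7565834 (Tac1, ENSMUSG00000061762), chr10:127724478-127731768 (Tac2, ENSMUSG00000025400), chr6:82402334-82560104 (Tacr1, ENSMUSG00000030043) and chr3:134829007-134934579 (Tacr3, ENSMUSG00000028172), all on the plus strand. No other annotated gene overlaps them.

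Counts were analysed for 23 libraries, with 5260446 to 30470621 UMIs (unique molecular identifiers, 1 per captured transcript molecule) each. After filtering, 47985 cortical and 50627 striatal cells remained. For the right hemisphere of dorsal striatum control 1 no counts were analysed here, so that pool rests on its left hemisphere. Barcodes shared between libraries put 4 pools in 1 class of capture kit (class A: pool 1 of control and of late in each region) and the other 8 in another. Libraries of class A shared 2226 barcodes over 28 pairs, those of class B 715 over 120 pairs, and libraries of different classes 112 over 128 pairs. No early pool was in class A. The labels name no kit, so the class is inferred from the barcodes. In each region class A is also 1 sequencing batch, so class and batch cannot be told apart there. Cell types were rebuilt from markers and are written "-like". Clusters with no clear identity keep their number.

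The level of a gene is its UMIs per 1000000 UMIs of the cells of a type, summed within a pool. A type was said to hold a gene where it had at least 3 pools with 20 cells, its level was above that of microglia-like cells in every such pool, and its mean was at least 10. Microglia-like cells served as the background, as a type that is not known to make these genes. Their mean Tac1 level was 37.8 in striatum, between 14.8 and 32.7 in 5 pools and 131 in late 1. In late 1 it was 57.4 in the contralateral library and 255 in the ipsilateral one, where 82 UMIs lay in 19 of 229 cells, so a few cells may set it. Free RNA and cells with many UMIs were not told apart. Their mean Tac1 level in cortex was 0.484, and their mean levels of the other members were at most 1.34 in either region. Captured 3' ends differ between genes, so levels are compared between cells and not between genes. The share of a type's cells with a UMI is the unweighted mean of the shares in those pools, so it can differ from a count over all cells of the type. Shares within a cluster are over all its cells. Named types were put in order of mean level and neighbours in that order were compared, so the values tested also chose the pairs.

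Tac1 was made in the striatum above all by spiny projection neurons, the output cells of the region. Eccentric spiny projection neuron-like cells, a minor class marked by Otof and Casz1, had the highest level. Their Tac1 level was 7909 and 6650 in control 1 and 2, 8055 and 6835 in early 1 and 2, and 7537 and 7373 in late 1 and 2. The mean was 7393 ± 564 (SD, n = 6 pools), with Tac1 UMIs in 99.2% of cells as the mean over pools, and in 95.7% when each cell was thinned to 1000 UMIs. D1 spiny projection neuron-like cells had 4064 and 3356 in control, 3311 and 3464 in early, and 4541 and 3901 in late pools, with a mean of 3773 ± 484 (SD, n = 6). Every eccentric value lay above every D1-like value. In D1-like cells both late pools lay above both early pools, and control overlapped with each. In eccentric cells the stages overlapped.

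The eccentric level exceeded the D1-like level in 6 of 6 pools, by 0.98 ± 0.18 (SD) on the log2 scale (exact two-sided sign-flip permutation test, n = 6, p = 0.03125, the smallest that 6 pools allow, 0.0625 adjusted over 4 neighbouring pairs). As there are fewer of them, eccentric cells (1213) gave 18.1% of the 239680 striatal Tac1 UMIs and D1-like cells (8981) gave 68.1%. Among D1-like cells 94.7% had a Tac1 UMI, and 84.3% did after the same thinning. A Tac1 UMI was found in 1.97% to 6.32% of the microglia-like cells of a pool, at a median of 1825 UMIs per cell against 4483 in D1-like cells.

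**Figure D1:**
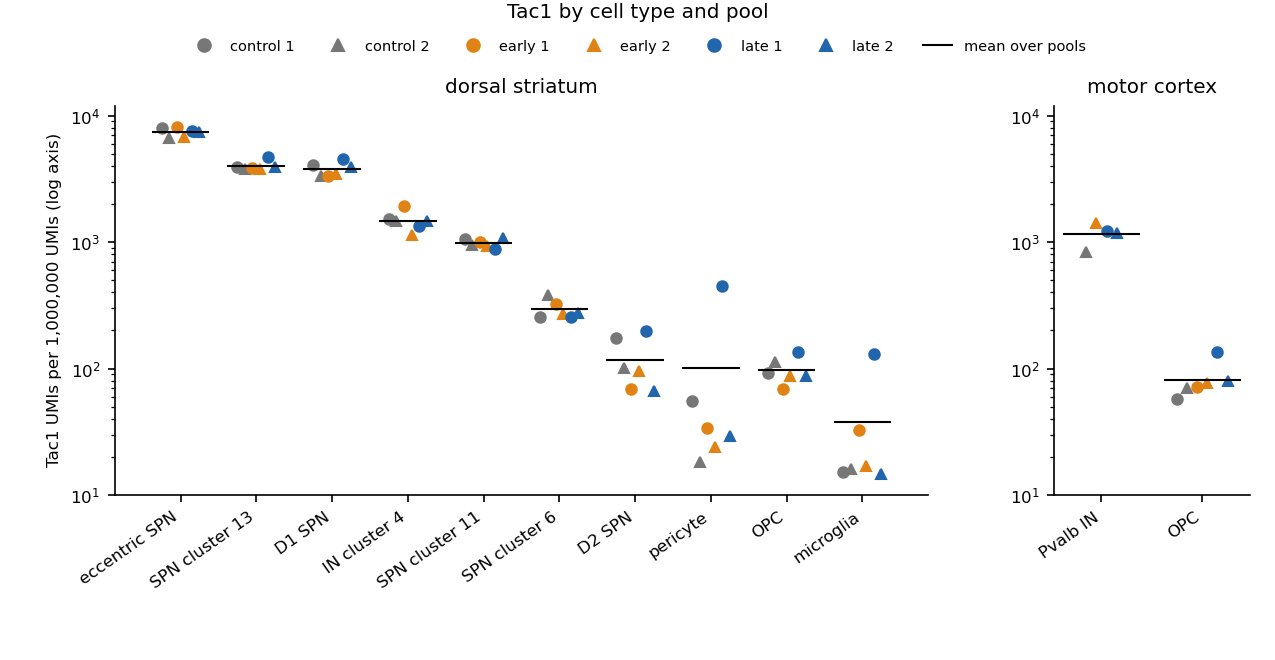
Tac1 level (UMIs per 1000000 UMIs, log axis) by cell type; each point is a pool (grey control, orange early, blue late; circles pool 1, triangles pool 2) and each line the mean over pools. SPN stands for spiny projection neuron, IN for interneuron and OPC for oligodendrocyte precursor. Eccentric, D1-like and cluster 13 cells stand above all other types, and late 1 is high in D2-like cells, pericytes and microglia.

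Within the D1-like class the level was uneven. Clusters 4 and 7 had Tac1 levels of 6398 ± 731 and 5514 ± 574 (SD, n = 6 pools), while clusters 0, 5 and 8 had 2535 ± 320, 2514 ± 384 and 2160 ± 323. With 5 pools each, cluster 17 had 2517 ± 686 and cluster 14 had 1487 ± 662 (SD). Cluster 14 was the lowest, was led by ribosomal and mitochondrial RNA, had a median of 1498 UMIs per cell and a Drd1 UMI in 35.8% of its cells. The cells had been clustered without the tachykinin genes. Clusters 4 and 7 were led by genes that included Pdyn, the dynorphin precursor, and Isl1, a transcription factor of the direct pathway. Pdyn alone did not follow the split, since its level was 416 in cluster 4 and 774 in cluster 7, and 425 in cluster 5 and 534 in cluster 8. In cluster 0 it was 140. These are descriptions of clusters, with no test.

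**Figure D2:**
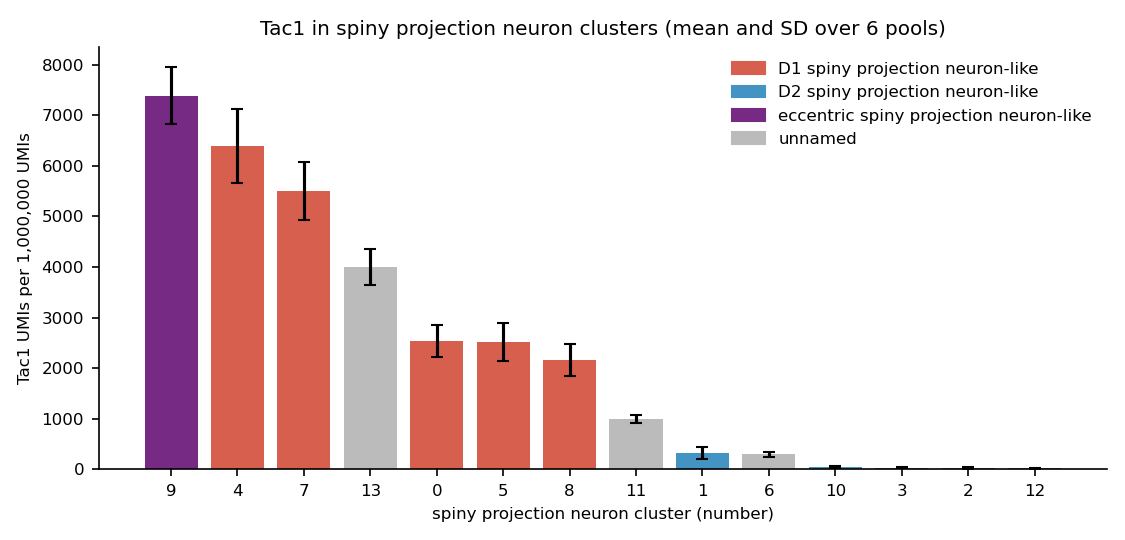
Tac1 level (UMIs per 1000000 UMIs) in each striatal spiny projection neuron cluster with 20 cells in all 6 pools; bars are means and whiskers SD over 6 pools. The D1-like clusters fall at 5514 to 6398 (clusters 7 and 4) or at 2160 to 2535 (clusters 0, 5 and 8), and clusters 14 and 17, with 5 pools, are not drawn.

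Unnamed cluster 13 of the spiny projection neurons carried Tac1 together with D2 markers. Its Tac1 level was 3999 ± 360 (SD, n = 6; 3762 to 4718), close to the D1-like mean. Its Drd2 level was 484 and its Drd1 level 2.97, against 512 and 1.93 in D2-like cluster 1 and 3.98 and 548 in D1-like cluster 0. Its Penk level (the enkephalin precursor) was 1119, against 5806 to 9977 in the D2-like clusters. The leading genes of the cluster were Npffr1, Htr7 and Casz1. In its 390 cells with 10 or more Tac1 UMIs, 92.6% had a Drd2 UMI and 1.54% a Drd1 UMI. The cluster held 572 cells and 5.58% of the striatal Tac1 UMIs.

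D2 spiny projection neuron-like cells, the indirect pathway cells that use enkephalin, had little Tac1. Their level was 174 and 100 in control, 69.1 and 95.2 in early, and 199.6 and 66.1 in late pools, a mean of 117 ± 56 (SD, n = 6). The class A pools control 1 and late 1 were the highest. D1-like cells were higher in 6 of 6 pools, by 5.11 ± 0.54 (SD) on the log2 scale (exact two-sided sign-flip permutation test, n = 6, p = 0.03125, adjusted 0.0625). Of the 8091 D2-like cells, 90.3% had no Tac1 UMI, and the 5% of cells with the most held 90.3% of the UMIs. The 110 D2-like cells with 10 or more Tac1 UMIs had Drd2 in 88.2%, Penk in 97.3% and Drd1 in 8.18% of cells, against 80.8%, 99.8% and 1.20% of the 7305 cells without Tac1. Adora2a, a D2 marker, was in 81.8% against 93.3%, and Pdyn, a D1 marker, in 9.09% against 0.548%. D1 markers were thus more frequent in these cells, while the D2 markers went different ways. Their median depth was 4745 UMIs, against 4096. The part of cell doublets in this was not tested.

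The D2-like clusters were unequal. D2-like cluster 1 had a Tac1 level of 314 ± 118 (SD, n = 6 pools), and D2-like clusters 2, 3, 10 and 12 had 18.7 to 41.2. Microglia-like cells, the background, had 14.8 to 131 over the striatal pools, with a mean of 37.8. Among the D2-like clusters only cluster 1 had a mean above that range. In late 1 the D2-like type as a whole had 199.6 against a background of 131. Cluster 6, which was led by Egr2, Arc and Fos and carried Drd2 at 521 and Drd1 at 3.52, had 294 ± 49.4 (SD, n = 6).

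Tac1 was also found in a striatal interneuron cluster. Interneuron cluster 4 had 1529 and 1468 in control, 1933 and 1143 in early, and 1328 and 1470 in late pools, a mean of 1479 ± 262 (SD, n = 6), with Tac1 in 66.5% of cells, or 46.8% thinned. It carried Sst at 37269, Npy at 13486 and Nos1 at 1424 UMIs per 1000000, as Sst Npy interneurons do. It stayed unnamed because its 10 leading genes (Tac1, Rmst and Gpx3 first) held a marker of another interneuron type and no Sst Npy marker. This marker was Reln, listed for Lamp5 interneurons. Slc35d3, listed for D1 spiny projection neurons, was also among the 10, but that list was not used to name interneurons. The Sst Npy interneuron-like cells that were named had a Tac1 level of 66.5 ± 65.3 (SD, n = 6), from 24.8 to 198. This was above microglia in 5 of 6 pools (all but late 1, at 47.6 against 131), so the type as named did not meet the rule. That outcome depends on where cluster 4 is counted. With cluster 4 added, a grouping chosen after seeing the data, the level was 383 ± 108 (SD, n = 6) and above microglia in 6 of 6 pools. The other striatal types that met it were spiny projection neuron clusters 11 (987 ± 78.4, SD, n = 6), 15, 16 and 19 (215 to 1740, with 3 pools each; cluster 15 was led by genes that include the astrocyte genes Apoe and Slc1a2), oligodendrocyte precursor-like cells (97.2 ± 23.1, n = 6) and pericyte-like cells. Oligodendrocyte precursor-like cells had 69.5 to 112 against a microglia level of 14.8 to 32.7 in 5 pools, and 135 against 131 in late 1. In pericyte-like cells the level was 18.3 to 55.4 in 5 pools and 448 in late 1, a pool with 23 such cells. Pericyte-like cells met the rule by a small margin in early 1 (33.8 against 32.7), control 2 (18.3 against 16.1, from 6 UMIs) and early 2 (23.8 against 16.9), so their level cannot be set apart from the background there. Without late 1 the pericyte-like mean fell from 101 to 32.1, below that of oligodendrocyte precursor-like cells, so their place in the order rests on that pool. Pericyte-like cells exceeded oligodendrocyte precursor-like cells in 1 of 6 pools (exact two-sided sign-flip permutation test, n = 6, p = 0.15625) and D2-like cells exceeded pericyte-like cells in 5 of 6 (p = 0.125). D2-like and oligodendrocyte precursor-like cells were not compared by a test.

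In motor cortex most Tac1 UMIs lay in a few inhibitory neurons, while most cells with a Tac1 UMI were oligodendrocyte precursor-like (below). Pvalb interneuron-like cells, the fast-spiking basket and chandelier type, had 828 in control 2, 1424 in early 2, and 1230 and 1185 in late 1 and 2. The other 2 pools held under 20 such cells. The mean was 1167 ± 249 (SD, n = 4), with a Tac1 UMI in 81.6% of cells as the mean over those pools, or 53.4% thinned. Over all 177 cells, at a median of 8662 UMIs per cell, 20.9% had no Tac1 UMI. A Tac1 UMI was found in 0.0993% of microglia-like cells at a median of 1820. This type held 47.1% of the 4271 cortical Tac1 UMIs in 177 cells. Interneuron cluster 18, with Pvalb, Th and Sst UMIs in 79.2%, 86.1% and 47.2% of its 72 cells, had a Tac1 level of 1040 over all its cells and 19.4% of the UMIs.

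Oligodendrocyte precursor-like cells held most of the rest of cortical Tac1, 24.8% of the UMIs in 5463 cells. They were 758 of the 1090 cortical cells with a Tac1 UMI. Their level was 57.3 and 70.3 in control, 71.9 and 76.5 in early, and 135 and 79.2 in late pools, a mean of 81.7 ± 27.3 (SD, n = 6), and late 1 stood apart. The UMIs were thinly spread, with 12.7% of cells at 1 or 2 UMIs and no cell at 10 or more. Pvalb interneuron-like cells were higher in 4 of 4 pools by 3.70 ± 0.44 (SD) on the log2 scale (exact two-sided sign-flip permutation test, n = 4, p = 0.125, the smallest that 4 pools allow). No other cortical type met the rule for Tac1.

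Tac2 was a gene of cortical Vip interneurons, which are known for inhibiting other interneurons. Vip interneuron-like cells had 1572 and 1707 in control, 1911 and 1770 in early, and 2007 and 1789 in late pools. Both control pools lay below all 4 trained pools. The mean was 1793 ± 153 (SD, n = 6), and the type held 77.1% of the 23280 cortical Tac2 UMIs. Only 54.4% of its cells had a Tac2 UMI, and 46.3% when thinned to 1000 UMIs, so the gene divided the type.

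That division followed the clusters, which were built without the tachykinin genes. Cluster 15, led by Edn3 and Cdh6, had a Tac2 level of 5360 and a UMI in 96.7% of its cells. Cluster 8, led by Crispld2 and Itih5, had 4401 and 97.7%. Clusters 3, 5 and 13 lay at 1519, 1908 and 1238, cluster 9 at 488, and cluster 6, led by Igfbp6 and C1ql2, at 75.8 with a UMI in 12.4% of cells. Cluster 3 was led by genes that included Chat and Slc18a3 of acetylcholine synthesis and packaging.

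**Figure D3:**
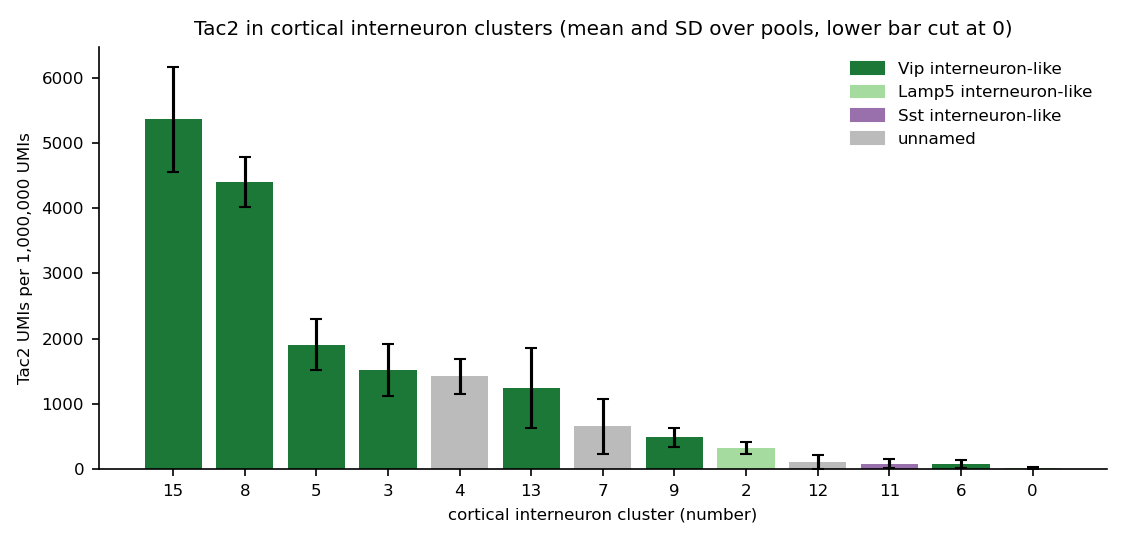
Tac2 level (UMIs per 1000000 UMIs) in cortical interneuron clusters with at least 4 pools of 20 cells and a mean of at least 10; bars are means and whiskers SD over pools, with the lower whisker ended at 0. Vip-like clusters reach from 75.8 (cluster 6) to 5360 (cluster 15).

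Outside the Vip-like cells, unnamed interneuron clusters 4 and 7 had Tac2 levels of 1422 ± 268 and 653 ± 428 (SD, n = 6). Cluster 7 ran from 78.4 in control 1 to 1249 in early 2. Lamp5 interneuron-like cells, which include neurogliaform cells, had 103 and 188 in control, 167 and 124 in early, and 199.6 and 126 in late pools (151 ± 38.9, SD, n = 6). Of its 2 clusters, cluster 2 stood at 327 and cluster 0 at 17.3. Sst interneuron-like cells had 2.23 to 183 (85.4 ± 71.0, SD, n = 6), and the 5% of cells with the most held 97.8% of the UMIs. In early 2 they had 1 UMI in 80 cells (2.23 against 1.32 in microglia-like cells). That they met the rule rests on this UMI. The Vip-like level exceeded the Lamp5-like level in 6 of 6 pools by 3.59 ± 0.30 (SD) on the log2 scale (exact two-sided sign-flip permutation test, n = 6, p = 0.03125, 0.0625 adjusted over 2 pairs). Lamp5-like and Sst-like cells did not differ beyond their spread (exact p = 0.125, n = 6).

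In the striatum Tac2 was sparse, with 1123 UMIs in all. Eccentric spiny projection neuron-like cells held 38.7% of them. Their Tac2 level was 158 and 77.6 in control, 44.6 and 57.2 in early, and 128 and 45.1 in late pools (85.0 ± 47.3, SD, n = 6). With the tachykinin genes kept in the clustering the mean was 136 ± 66.0 (SD, n = 6). The class A pools, control 1 and late 1, were the 2 highest. Of the 183 eccentric cells with a Tac2 UMI, 182 also had Tac1, against 1200 of 1213 eccentric cells with Tac1 in all. Spiny projection neuron cluster 11, led by Nfib, Nfix and Trh, held a further 36.7%. Its Tac2 level was 208 and 292 in control, 74.9 and 136 in early, and 3.33 and 232 in late pools. Late 1 fell to 1 UMI in 179 cells, so the cluster did not meet the rule. Th interneuron-like cells had 0 to 86.3 (37.9 ± 32.4, SD, n = 6) and did not meet it either. Spiny projection neuron cluster 19, with 3 pools, met it at 175 ± 175 (SD), on UMIs from 1, 1 and 2 cells.

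Tacr1, the receptor for substance P, was highest in 3 groups of striatal interneurons. Cholinergic interneuron-like cells, the local source of acetylcholine (leading genes Slc5a7, Ecel1, Slc18a3 and Chat), had 479 and 576 in control, 558 and 578 in early, and 610 and 708 in late pools. The mean was 585 ± 74.6 (SD, n = 6), with a UMI in 89.6% of cells as the mean over pools, at a median of 15153 UMIs per cell, and in 40.8% when thinned to 1000 UMIs. Sst Npy interneuron-like cells, which also make nitric oxide, had 511 and 536 in control, 673 and 564 in early, and 419 and 528 in late pools (539 ± 82.2, SD, n = 6), with a UMI in 89.8% of cells as the mean over pools. Over all 624 cells, 12.7% had none, and when thinned 40.7% had one as the mean over pools. The 2 types overlapped and did not differ beyond their spread, at 0.12 ± 0.31 (SD) on the log2 scale, higher in cholinergic cells in 4 of 6 pools (exact two-sided sign-flip permutation test, n = 6, p = 0.34375). Interneuron cluster 4, the Tac1-rich cluster with Sst and Npy, had a Tacr1 level of 489 ± 124 (SD, n = 6), from 312 in control 1 to 653 in late 2. Ligand and receptor gene thus stood in the same cluster. Cluster 1 of the Sst Npy-like cells had Tacr1 at 599.5 and Tac1 at 131 over all its cells. Its Tac1 level was above microglia in 5 of 6 pools, from 63.1 to 366, and late 1 was below (94.6 against 131), so it did not meet the rule. Early 1 gave 135 of its 271 Tac1 UMIs.

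Far below these lay Th interneuron-like cells at 37.9 ± 9.54 and eccentric spiny projection neuron-like cells at 32.2 ± 2.75 (SD, n = 6). Sst Npy-like cells exceeded Th-like cells in 6 of 6 pools by 3.82 ± 0.52 (SD) on the log2 scale (exact two-sided sign-flip permutation test, n = 6, p = 0.03125, 0.09375 adjusted over 3 pairs). Th-like and eccentric cells did not differ beyond their spread (exact p = 0.28125, n = 6). Spiny projection neuron clusters 11, 16 and 19 had 12.5 to 39.9. Cluster 19 rests on 1 cell in each of 3 pools (4, 2 and 1 UMIs) and cluster 16 on 1, 6 and 5 UMIs. The D1-like and D2-like cells that make most of the striatal neurons had a Tacr1 UMI in 0.389% and 0.924% of cells, against 0.143% of microglia-like cells, and Pvalb Pthlh interneuron-like cells in 0.201%. Sst Npy-like cells held 44.1%, cholinergic cells 33.0% and cluster 4 cells 11.6% of the 6616 striatal Tacr1 UMIs.

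In cortex the only type to hold Tacr1 was the Sst Chodl interneuron-like cell, the long-range, nitric oxide-making type. Its level was 145 and 231 in control, 88.0 and 127 in early, and 127 and 110 in late pools (138 ± 49.4, SD, n = 6). Both control pools lay above all 4 trained pools. It held 81.8% of the 352 cortical Tacr1 UMIs in 182 cells, and 59.2% of its cells had one, or 13.2% when thinned to 1000 UMIs. The receptor sat in cluster 14, at 169 over its 140 cells, where Chodl was at 394 and Nos1 at 3075. Cluster 21 of the same name had Tacr1 at 4.44 and no Chodl UMI in its 42 cells.

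**Figure D4:**
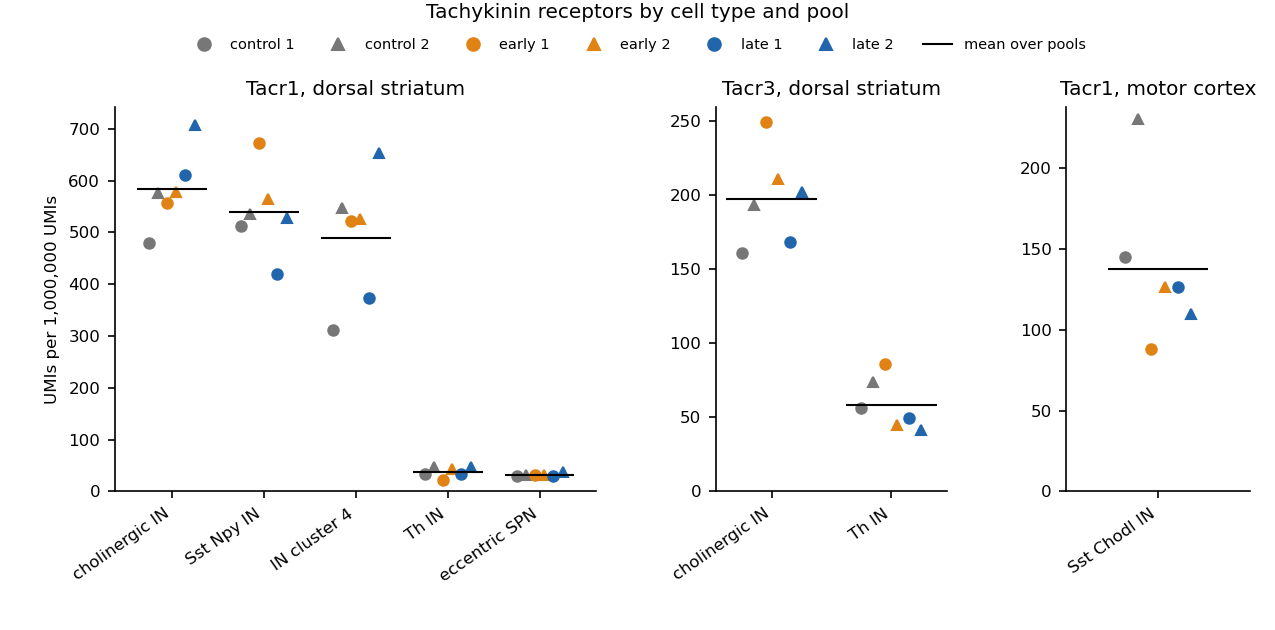
Levels of Tacr1 and Tacr3 (UMIs per 1000000 UMIs) in the types named on the axis; each point is a pool (grey control, orange early, blue late; circles pool 1, triangles pool 2) and each line the mean over pools. Striatal Tacr1 falls from 489 to 585 in 3 interneuron groups to 37.9 and below, and the Tacr3 levels of the 2 types do not overlap.

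Tacr3, the receptor for neurokinin B, was held by fewer cells. Cholinergic interneuron-like cells had 161 and 194 in control, 249 and 211 in early, and 168 and 202 in late pools (197 ± 31.8, SD, n = 6), with a UMI in 63.1% of cells, or 16.2% thinned. Th interneuron-like cells had 56.0 and 73.5 in control, 86.3 and 45.0 in early, and 49.4 and 41.1 in late pools (58.6 ± 17.7, SD, n = 6). The groups did not overlap, and cholinergic cells were higher in 6 of 6 pools by 1.77 ± 0.38 (SD) on the log2 scale (exact two-sided sign-flip permutation test, n = 6, p = 0.03125, adjusted 0.03125). The 2 Th-like clusters differed, with 79.5 in cluster 7, led by Syt2 and Lypd1, and 30.3 in cluster 6, led by Gal and Trh. Cholinergic cells held 78.6% and Th-like cells 15.2% of the 915 striatal Tacr3 UMIs. Sst Npy-like cells had none. Spiny projection neuron cluster 19 met the rule at 13.03 ± 8.20 (SD, n = 3), on 2, 1 and 1 UMIs. In cortex, 103 Tacr3 UMIs were spread over many types and no type reached a level of 10.

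Cholinergic cells therefore carried both receptor genes. Of all 223 such cells, 202 had a Tacr1 UMI, 140 a Tacr3 UMI and 134 both. Tacr3 was found in 66.3% of the cells with Tacr1 and 28.6% of those without, whose median depth was 1780 UMIs against 15799. The part of depth in this difference was not tested. Of the family's other genes, Tac4 (hemokinin precursor) had 4 UMIs in cortex and 7 in striatum, and Tacr2 (NK2 receptor) 13 and 3.

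By a rule of likeness, genes were ranked by the Pearson correlation of their log2 level with that of each member across the named cell types (22 in cortex, 21 in striatum), as a description in which the types share libraries. In cortex Tac1 was most like Pvalb (r = 0.868). Tac2 was most like Gm49227 (0.901), with Crh (0.872) and Vip (0.834) among the first 5, and Tacr1 was most like Ccdc187 (0.935), followed by Chodl (0.912). In striatum Tacr1 was most like Zar1 (0.925) and Htr1a (0.895), and Tacr3 like Slc10a4 (0.976) and Rspo4 (0.924).

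Training stage was compared in the types that hold at least 1 member and had 20 cells in all 6 pools. Types that hold no member were not tested. UMIs were summed per pool and tested with edgeR's quasi-likelihood test, with the kit class as a covariate. Calls were made at a Benjamini-Hochberg adjusted p under 0.05 over all genes of a type and contrast. In the types that hold the member, 0 of 72 tests were called (24 pairs of gene and type, 3 contrasts). Over all genes tested in these fits, 0.0355% were called. At an unadjusted p under 0.05 there were 9 of the 72, beside 5.28% of all genes. DESeq2 called 0 of the 87 tests run with members.

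D1-like Tac1, at 3356 to 4064 in control, 3311 to 3464 in early and 3901 to 4541 in late pools, gave a log2 change of 0.01 (SE 0.14) early and 0.22 (SE 0.13, edgeR adjusted p = 0.818) late against control. Eccentric Tac1 changed by 0.13 (SE 0.17) and 0.06 (SE 0.15). Vip-like Tac2 gave 0.25 (SE 0.17) and 0.28 (SE 0.15, edgeR adjusted p = 0.954). For the receptors, cholinergic Tacr1 gave -0.01 (SE 0.21) and 0.30 (SE 0.19), and cholinergic Tacr3 0.23 (SE 0.22) and 0.03 (SE 0.20). None of these 5 pairs passed the test in either contrast. The fitted values are adjusted for kit class, and in 13 of the 72 tests their sign differed from that of the difference between pool means. Most of these were small (median size 0.07). Among them are D1-like Tac1 early against control (mean levels 3388 and 3710) and cholinergic Tacr1 early against control (567.7 and 527.4). Sequencing batches crossed the stages in part: in each region control 1 and late 1 shared a batch, and control 2 and early 1 another. Early 2 and late 2 shared a batch with no other stage of their region, so no batch held both early and late pools of a region. Within the shared batches D1-like Tac1 differed by 0.16 late against control and -0.02 early against control on the log2 scale. Eccentric Tac1 differed by -0.07 and 0.28, so its late value was opposite in sign to the fitted one. Vip-like Tac2 differed by 0.35 and 0.16, cholinergic Tacr1 by 0.35 and -0.05, and cholinergic Tacr3 by 0.06 and 0.36. Each of these comes from 1 pair of pools and has no test.

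Larger values stood mostly in small or variable groups and also did not pass. Eccentric Tac2, in 1213 cells, was at -0.46 (SE 0.24) early and -0.51 (SE 0.20, edgeR adjusted p = 0.820) late against control. With 1 pool left out the late value ran from -0.76 to -0.28. Within the shared batches it differed by -0.31 late and -0.80 early. Late pools (45.1 and 128) overlapped with control pools (77.6 and 158). Tacr1 in Sst Chodl-like cells was at -0.89 (SE 0.31, edgeR adjusted p = 0.978) early and -0.61 (SE 0.29) late against control. With 1 pool left out these ran from -1.15 to -0.18 and from -1.02 to -0.14, and both were smallest without control 2. The Sst Chodl-like type joins the cluster in which the receptor sat with another that had little Tacr1 and no Chodl UMI. The part of their mix in these changes was not tested. Interneuron cluster 4 of cortex had Tac2 levels of 1128.5 and 1085 in control, 1593 and 1774 in early, and 1461 and 1492 in late pools. All trained pools lay above both control pools, and the log2 changes were 0.66 (SE 0.21, edgeR adjusted p = 0.49) early and 0.48 (SE 0.19) late. Cluster 7 of cortex gave 0.82 (SE 0.26, edgeR adjusted p = 0.425) for Tac2 late against control. With 1 pool left out it ran from 0.22 (without control 1, edgeR adjusted p = 0.956) to 2.48 (without control 2, edgeR adjusted p = 0.000314). It was also near the low end without late 1 (0.25) and near the high end without late 2 (2.46). Tac1 in cortical oligodendrocyte precursor-like cells gave 0.69 (SE 0.25) late against control, with 135 in late 1 and 79.2 in late 2. With 1 pool left out it ran from 0.25 (without control 1 or late 1) to 1.39 (without late 2). The largest value among types that hold the member was that of Tac1 in striatal pericyte-like cells, at 1.37 (SE 0.70) early and 1.69 (SE 0.60, edgeR adjusted p = 0.668) late against control. The early sign is opposite to that of the pool means, which were 28.8 in early against 36.9 in control pools. In the batch they shared, early 1 (33.8) lay above control 2 (18.3), by 0.88 on the log2 scale. Control 1, at 55.4, lay above both early pools. The late mean was 239, from 448 in late 1 and 29.1 in late 2. With 1 pool left out the late value ran from 0.63 (without late 1) to 2.63 (without late 2), with 0.64 without control 1 and 2.62 without control 2, and it passed in none of these.

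**Figure D5:**
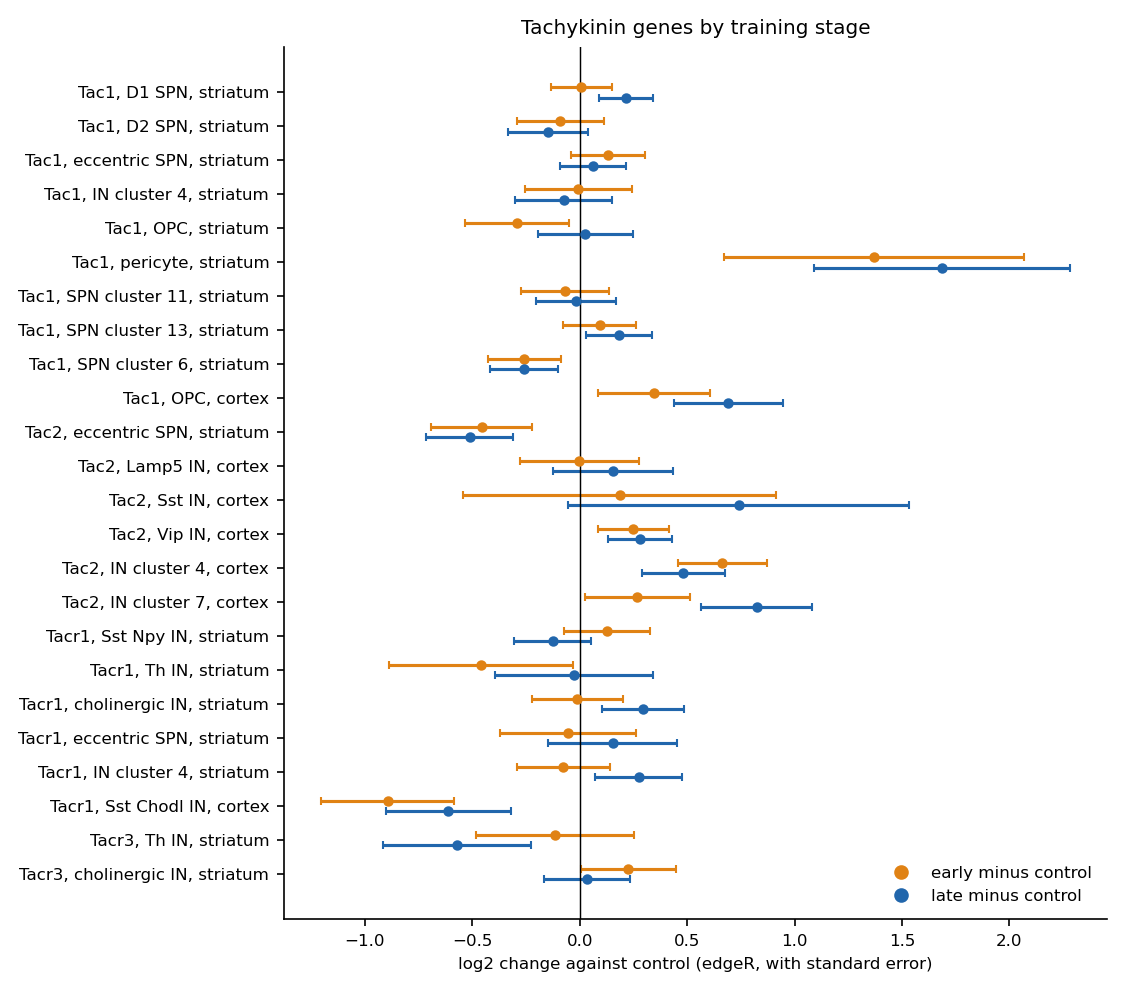
Log2 change of each member against control by edgeR in the types that hold it (whiskers, standard error; orange early, blue late). The values run from -0.89 (Tacr1 in Sst Chodl-like cells) to 1.69 (Tac1 in striatal pericyte-like cells), and none passed the test.

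1 test passed in a cluster that did not meet the rule: Tac2 in spiny projection neuron cluster 11 fell by 1.86 (SE 0.38, edgeR adjusted p = 0.0209) on the log2 scale early against control. In that fit 0.147% of 7469 genes were called. Both early pools (74.9 and 136) lay below both control pools (208 and 292). With 1 pool left out the change ran from -7.03 (without control 2) to -1.47 (without early 1). Without control 2 the only control pool is in class A and both early pools are in class B. The kit difference in that fit then rests on late 1 against late 2, so its size says little about the change. The call was lost with DESeq2, without the kit covariate and with the replicate number as a block, and late 1 of this cluster, at 3.33, lay below both early pools.

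The trained forelimb is driven by the contralateral hemisphere. In the 4 trained pools of each region the hemispheres were compared with the pool as a block. The types compared were those that hold at least 1 member and had 20 cells in each of the 8 libraries. Among types that hold the member 0 of 13 tests were called by edgeR, against 0.0219% of all genes, with 2 of the 13 at an unadjusted p under 0.05, beside 4.23% of all genes. DESeq2 called 0 of 15. D1-like Tac1, contralateral against ipsilateral, was 3390 against 3201 and 3412 against 3514 in early 1 and 2. It was 4383 against 4724 and 3809 against 3979 in late 1 and 2. The log2 difference was -0.04 (SE 0.06). Vip-like Tac2 was 1853 against 1952, 1746 against 1791, 1818 against 2185 and 1768 against 1807 in the same pools. The contralateral side was lower in 4 of 4 pools, by a log2 difference of -0.10 (SE 0.06, edgeR adjusted p = 0.998) that did not pass. Sst Npy-like Tacr1 differed by 0.06 (SE 0.10). The largest difference among types that hold the member was that of Tac1 in spiny projection neuron cluster 6, at 448 against 196 and 314 against 228 in early 1 and 2, and 197 against 315 and 335 against 223 in late 1 and 2. The contralateral side was higher in 3 of 4 pools, by 0.42 (SE 0.11, edgeR adjusted p = 0.367) on the log2 scale. Without late 1 it was 0.66 (edgeR adjusted p = 0.000396), and without early 1 it was 0.25 (edgeR adjusted p = 0.999).

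A single hemisphere call fell outside the rule. Tac1 in Sst Npy interneuron-like cells was lower contralaterally by a log2 difference of -1.07 (SE 0.22, edgeR adjusted p = 0.0420, with 0.03% of 6669 genes called). It rested on the ipsilateral library of early 1, at 335 (131 UMIs, with UMIs in 9 of 34 cells) against 96.6 contralaterally. In the other 3 pools the contralateral and ipsilateral levels were 42.8 and 30.2, 45.1 and 49.5, and 21.1 and 27.2. Without early 1 the difference was -0.01 (SE 0.31, edgeR adjusted p = 0.9999).

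Reporter-positive neurons, with at least 1 UMI of the tdTomato or wpre features, were compared with negative ones of the same pool. A cut at 1 UMI depends on depth. In D1-like and D2-like cells the positive ones had the higher median UMIs in every pool, except D1-like cells of control 1 (3571 against 3670.5). In D2-like cells of late 1 the medians were 2652 and 2403.5. The part of depth in the reporter comparisons was not tested. In D1-like cells Tac1 was 4349 against 3977 and 3549 against 3305 in control, 3019 against 3392 and 3561 against 3443 in early, and 4713 against 4504 and 4229 against 3812 in late pools. Positive cells were higher in 5 of 6 pools, and the log2 difference of 0.05 (SE 0.02, edgeR adjusted p = 0.737) did not pass, with 0.211% of 11363 genes called. Without early 1, the exception, it was 0.10 (SE 0.02, edgeR adjusted p = 0.00354). Without each of the other pools it did not pass, from 0.03 (without late 2) upward, with an edgeR adjusted p of up to 0.963.

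In D2-like cells Tac1 was called lower in positive cells, by a log2 difference of -0.44 (SE 0.09, edgeR adjusted p = 0.000814), with 0.493% of 10554 genes called. The pools did not bear this out evenly. Positive against negative levels were 198 against 167 and 110 against 97.5 in control, 75.4 against 67.7 and 64.8 against 101 in early, and 93.1 against 226 and 22.2 against 79.8 in late pools. Positive cells were lower in 3 of 6 pools. The call was lost with DESeq2 at -0.50 (SE 0.34), without the pool block at -0.44 (SE 0.19), without late 1 at -0.19 (SE 0.10), and without late 2 at -0.31 (SE 0.09). Without D2-like cluster 1, an alternative chosen after seeing the data, the direction turned, at 0.35 (SE 0.13, edgeR adjusted p = 0.473). Positive cells were also spread unevenly over the clusters. In cluster 1, with Tac1 at 303 over all its cells, 16.3% of cells were positive. In clusters 2, 3 and 12, with Tac1 at 21.5 to 29.4, 20.6%, 20.3% and 24.3% were, and in cluster 10 (41.3) 14.4%. Within cluster 1 the level was 236 in positive and 317 in negative cells, and within cluster 10 it was 113 and 27.7. Within clusters 2, 3 and 12 it was 27.0 and 26.5, 23.2 and 31.2, and 14.2 and 23.9. The part of this unequal spread in the difference was not tested beyond leaving out cluster 1. Late 1 is also the pool with the highest Tac1 in microglia-like cells. The part of free RNA in this was not tested. No member passed the filter on low counts in reporter fits of cortical glutamatergic neurons.

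A list of 36 symbols around the family covered Tac4 and Tacr2, enzymes that cut and amidate peptide precursors and granins that pack them (such as Pcsk1, Pcsk2, Cpe and Pam), peptide-degrading enzymes (such as Mme, neprilysin) and the Gq route with receptor kinases and arrestins. Of these, 14 to 28 could be tested in a given type. None was called in either direction by edgeR in the stage and hemisphere fits or in the D1-like and D2-like reporter fits. At an unadjusted p under 0.05 there were 84 of 1311 stage tests (6.41%, beside 5.28% of all genes), 11 of 245 hemisphere tests (4.49%, beside 4.23%) and 2 of 49 striatal reporter tests (4.08%, beside 6.29%). DESeq2 called 0 in each of these 3 sets. The medians of the list ran from -0.16 to 0.12 over the 57 stage fits, beside -0.03 to 0.02 for all genes tested in each fit.

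Single list genes were called in 1 fit, that of reporter-positive against negative glutamatergic neurons of motor cortex, in which 8.49% of 14929 genes were called. There 7 of 28 list genes passed, 3 higher and 4 lower, by edgeR and by DESeq2. At an unadjusted p under 0.05 in edgeR there were 8 of the 28 (28.6%, beside 21.2% of all genes). The fit pooled all glutamatergic types. The part of their unequal spread over positive and negative cells was not tested. The list itself was not tested, and its median log2 difference was -0.0044. The granin Scg2 was higher by a log2 difference of 0.12 (SE 0.03), the proconvertase Pcsk2 by 0.07 (SE 0.02) and the proconvertase inhibitor Pcsk1n by 0.07 (SE 0.02). The granins Chgb (-0.17, SE 0.02) and Scg3 (-0.18, SE 0.03) and the phospholipases Plcb1 (-0.10, SE 0.03) and Plcb4 (-0.13, SE 0.03) were lower. No glutamatergic type met the rule for any member.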

How the data were processed

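UMI counts per gene and cell were deposited by the authors as 10x matrices, made with Cell Ranger 3.1.0 on mm10 per the submitters' processing notes. From these counts, cells with at least 500 genes, at least 1000 UMIs and at most 20% mitochondrial UMIs were kept, and the cells with the highest Scrublet doublet scores were removed at 0.8% per 1000 barcodes. Cells were clustered per region without the tachykinin genes (scanpy 1.11.5; 2000 variable genes, 40 components, 20 neighbours, Leiden resolution 1.5) and named from marker lists. Counts were summed per pool and type and tested with edgeR 4.0.16. DESeq2 1.42.0 was an alternative. On simulated counts the D1-like fit (14621 genes) recovered 40% of 2-fold and 86% of 4-fold changes. The simulation used the same dispersion for all genes and no kit effect. The changed genes were drawn at random from those tested, so these shares do not give the power for the members. The members and gene lists were chosen with earlier results of these data known. Named genes are the members, identity markers, the leading genes of clusters and, for each member and region, genes among the 5 most correlated. Hemispheres of a pool come from the same mice, so the pool was a block (lowest correlation of paired deviations 0.164). Replicate numbers of the stages follow record order and are no pairing, although control 1 and late 1 of a region share a sequencing batch (and kit class), as do control 2 and early 1. The genes most like striatal Tac1 and Tac2 are not reported here.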

Additional observations from a re-analysis of the deposited data

Results flagged for a closer look

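In 4 of 25 levels with 6 pools, 1 pool lay far from the others by Dixon's criterion, which chance meets in about 1 in 20 groups. Tac1 in striatal pericyte-like cells was 448.0 in late 1, from 23 cells, against 18.3 to 55.4 in the other pools. Tac1 in spiny projection neuron cluster 13 was 4718 in late 1 against 3762 to 3946. Tac1 in cortical oligodendrocyte precursor-like cells was 135.4 in late 1 against 57.3 to 79.2. Tacr1 in eccentric spiny projection neuron-like cells was 37.5 in late 2 against 29.9 to 32.4.

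Of 14 hemisphere differences, unnamed clusters included, 2 went opposite ways in early and late pools. With 2 pools per stage, random signs also give this in part of such differences, so these 2 are not read as a pattern. For Tac2 in Lamp5 interneuron-like cells the contralateral minus ipsilateral log2 difference was -0.86 and -0.01 in the early pools and 0.96 and 1.24 in the late pools. The early minus late difference was -1.54, and it was not tested. For Tac1 in spiny projection neuron cluster 11 the contralateral and ipsilateral levels were 947 and 1053, and 719 and 1067 in the early pools, and 958 and 795, and 1178 and 972 in the late pools. The early minus late difference in log2 was -0.63, and it was not tested.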

How the results depend on the processing

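Among member tests 1 was called for stage, 1 for hemisphere and 1 for the reporter. The stage count was 6 without the filter on low counts, and 0 with DESeq2, without the kit covariate and with the replicate block in place of the kit class. Leaving out 1 pool gave 2 to 6. The hemisphere and reporter counts were each 0 with DESeq2 and 0 with no replicate block, and 0 to 2 with 1 pool left out. The replicate numbers of the stages are not a pairing, since they follow record order. With the tachykinin genes kept in the clustering, eccentric Tac1 was 6592 and eccentric Tac2 136, and as a mean over cells eccentric Tac1 was 6785. Of 36 alternative shares of cells with a UMI (thinned, or with at least 2 UMIs), 30 differed from the main share by more than the SD over pools. No reversed value below was called in the main fit except D2-like Tac1. Tac2 late against early in cortical interneuron cluster 7 was -0.24 without the kit covariate, -0.11 with the replicate block, and between -0.038 (without early 1) and 2.46 (without late 2) with 1 pool left out. Eccentric Tac1 late against control ran from -0.040 (without late 2; also below 0 without control 2) to 0.17 with 1 pool left out. Sst Npy-like Tacr1 late against control ran from -0.27 (without late 2) to 0.015 (without control 1; also above 0 without late 1). D1-like Tac1 by reporter was -0.012 without the filter, and D2-like Tac1 was 0.35 without cluster 1. Some changes that were not called passed with 1 pool left out. Tac2 late against early in cluster 7 was called without early 2 (1.59) and without late 2. Late against control in that cluster was called without control 2 (2.48) and without late 2 (2.46). Tac1 in striatal spiny projection neuron cluster 6, contralateral against ipsilateral, was called without late 1 (0.66, edgeR adjusted p = 0.000396, against 0.367 with all pools). On counts simulated for the D1-like and the cholinergic stage fits, 40% and 36% of 2-fold changes were recovered. These shares hold for the simulated setting and not for the members. No simulation was run for the other fits.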
